A study of Mus musculus with 11 samples.

Results

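Chemokines and chemokine receptors were followed through the embryonic formation of blood stem cells. The genes were all rows of the expression table whose symbol begins with Ccl, Cxcl, Ccr or Cxcr and ends in a number, with Cx3cl1 and Cx3cr1 added. This name rule gave 55 of 37820 gene rows, 37 for chemokines (the secreted ligands) and 18 for receptors, and 54 distinct symbols because Ccl25 has 2 overlapping gene models. Cxcr7 is the older name of Ackr3.

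The data are 11 RNA-seq libraries from 5 populations of sorted mouse cells, 3 of them from pre-HSCs and 2 from each other population. Endo (endothelial cells, CD31+ Runx1:GFP- Kit- CD45- CD41-) and HE (hemogenic endothelium, CD31+ Runx1:GFP+, Kit low or negative, CD45- CD41-) came from pooled E10.5 embryos with a GFP reporter in the Runx1 locus. Pre-HSCs (CD31+ CD144+ ESAM+ Kit+ Ly6a:GFP+) came from pooled embryos with a transgene in which Ly6a sequences drive GFP, staged E10.5 by the labels and E11.5 by the paper, and their gate did not exclude CD45. FL HSCs (Lin- Sca-1+ Kit+ CD150+ CD48-) came from E14.5 fetal liver. BM HSCs were Lin- Sca-1+ Kit+ CD150+ cells from bone marrow of mice 6 to 8 weeks old, further gated as CD34- in one place of the study and as CD48- CD135- in another. By the study's methods the dams of the pre-HSC embryos were given gonadotropins to superovulate, which is stated for no other population and cannot be told apart from it, and no other treatment of the animals is given. The labels give the strain B6129SF1 for all libraries, while by the study's methods the Runx1 reporter, the Ly6a reporter and the crosses of B6C3F1 and B6129SF1 mice differed with the population, so strain, reporter and population cannot be told apart. The values were FPKM (fragments scaled by transcript length and by the library's mapped reads), which are per length and so allow levels of different genes to be compared. The depth behind a value is unknown. These were bulk samples, in which fewer cells of a type and less RNA per cell cannot be told apart.

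Chemokines are small secreted proteins that guide moving cells along concentration gradients. They bind G protein-coupled receptors on the target cell, and atypical receptors such as Cxcr7 take them up without coupling to G proteins. Homeostatic chemokines are made steadily, Cxcl12 above all, which holds blood stem cells in their marrow niche through Cxcr4. Inflammatory chemokines such as Ccl2, Ccl3 and Cxcl2 are switched on in macrophages, endothelium and other cells by inflammatory signals and draw in monocytes and neutrophils. NF-kappaB, a transcription factor of inflammatory signaling, is a textbook regulator of several of them.

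The promoters of 5 chemokine genes that rose into pre-HSCs are shown. They were chosen after the matches were seen: the 4 risen genes that held a kappaB match, and Ccl3, which held none. Ccl3 had the highest mean in pre-HSCs among the 55 rows of the name rule. Each runs from 250 bases before to 50 bases after the RefSeq start site, 5′ to 3′ on the gene's own strand (GRCm38.p6, a later build than the mm9 of the expression table). Capitals mark matches, on either strand, to the kappaB consensus or to the interferon response letters GAAANNGAA.

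Cxcl1: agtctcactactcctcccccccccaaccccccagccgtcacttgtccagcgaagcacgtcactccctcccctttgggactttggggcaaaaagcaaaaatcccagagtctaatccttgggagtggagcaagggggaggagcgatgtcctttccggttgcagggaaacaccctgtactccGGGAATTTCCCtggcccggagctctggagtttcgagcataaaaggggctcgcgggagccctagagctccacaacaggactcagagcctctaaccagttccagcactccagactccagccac
Cxcl2: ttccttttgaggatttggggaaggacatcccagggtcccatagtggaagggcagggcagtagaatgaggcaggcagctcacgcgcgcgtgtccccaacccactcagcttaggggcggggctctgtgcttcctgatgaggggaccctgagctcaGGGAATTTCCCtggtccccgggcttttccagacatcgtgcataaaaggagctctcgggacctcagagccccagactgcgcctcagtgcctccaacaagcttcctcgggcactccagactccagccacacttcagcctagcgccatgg
Cxcl10: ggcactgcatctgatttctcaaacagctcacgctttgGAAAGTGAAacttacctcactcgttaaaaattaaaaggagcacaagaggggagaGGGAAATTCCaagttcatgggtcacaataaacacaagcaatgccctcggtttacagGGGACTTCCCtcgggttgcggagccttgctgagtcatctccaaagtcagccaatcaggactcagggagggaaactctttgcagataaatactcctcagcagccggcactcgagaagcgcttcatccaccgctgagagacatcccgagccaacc
Ccl9: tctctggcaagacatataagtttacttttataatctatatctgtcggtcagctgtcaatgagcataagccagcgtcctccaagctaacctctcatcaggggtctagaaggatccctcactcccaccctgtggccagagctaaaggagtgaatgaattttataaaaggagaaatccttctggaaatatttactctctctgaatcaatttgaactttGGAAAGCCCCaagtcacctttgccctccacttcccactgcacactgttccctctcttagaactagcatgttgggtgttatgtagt
Ccl3: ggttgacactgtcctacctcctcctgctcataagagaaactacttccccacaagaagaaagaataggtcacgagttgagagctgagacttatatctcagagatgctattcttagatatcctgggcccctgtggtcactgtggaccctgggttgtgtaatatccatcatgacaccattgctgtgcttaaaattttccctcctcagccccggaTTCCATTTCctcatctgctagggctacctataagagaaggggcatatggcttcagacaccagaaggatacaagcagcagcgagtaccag

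The Cxcl1 promoter lies at chr5:90890995-90891294 on the plus strand and the Cxcl2 promoter at chr5:90903649-90903948 on the plus strand. The Cxcl10 promoter lies at chr5:92348840-92349139 on the minus strand. On chromosome 11, the Ccl9 promoter is at chr11:83578587-83578886 and the Ccl3 promoter at chr11:83649329-83649628, both on the minus strand. Cxcl1 and Cxcl2 held the same run, GGGAATTTCCC, beginning 71 and 97 bases before the start site. It counts as 2 overlapping kappaB matches, 1 on each strand. Cxcl10 held 2 kappaB matches, beginning 159 and 103 bases before the start, and an interferon match at 213. Ccl9 held a kappaB match at 35. Ccl3 held only an interferon match, on the opposite strand, at 39. No kappaB match overlapped an interferon match in these windows.

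The RefSeq promoter table held 39 of the 54 symbols. A kappaB match was present for 9 of these 39 symbols, counted when any promoter of the symbol held it. It was present for 4 of the 9 that rose into pre-HSCs and for 4 of the 21 below the filter. Of all 32851 promoters of this length, each counted singly, 4.51% held it. The measures differ where a symbol has several promoters. The interferon letters were present in 8 of 39, 2 of 9 and 5 of 21 in the same order, against 8.56% of all promoters. These are matches of letters, and binding was not measured.

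Chemokine and receptor rows at a mean of 1 FPKM or more were most numerous in pre-HSCs. Of the 55 rows, 23 had a mean FPKM of 1 or more in pre-HSCs, against 7 in Endo, 7 in HE, 12 in FL HSCs and 8 in BM HSCs. Among the 49 rows above 0 in some library, 25 had their highest mean in pre-HSCs, 2 in Endo, 4 in HE, 8 in FL HSCs and 10 in BM HSCs. In BM HSCs only 4 rows were at or above 1 in every library.

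Tests used log2(FPKM + 1) in limma, fitted over all 11 libraries and 14708 genes that had 1 FPKM or more in 2 or more libraries. Calls required an adjusted p under 0.01 in the F test across populations and, between neighboring populations, an adjusted p under 0.05 and a change of 2-fold or more. All adjusted p values below are limma's, with the Benjamini-Hochberg adjustment over all tested genes. Differences are given as log2 values of FPKM + 1, later minus earlier population, with their standard errors (SE), and they understate the change of genes at low FPKM. The filter kept 25 of the 55 rows, 19 ligands and 6 receptors. A gene that passed it through 1 population had to differ from the others, so the counts below describe these 25 rows and not the whole families. In 19 of the 25, 13 ligands and 6 receptors, at least 1 of the 4 transitions was called.

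No tested chemokine gene was called between Endo and HE, where 0.0544% of all tested genes were called higher in HE and 0.0748% lower. From read counts the study called many more genes at this step, so the lack of calls does not show unchanged levels. With 2-fold changes judged by p values under 0.05 before adjustment, 1 of the 25 rows was higher in HE and 0 were lower, against 336 of all 14708 tested genes in either direction. From HE to pre-HSCs, 14 of 25 rose (11 ligands and 3 receptors), against 6.98% of all tested genes, and 2 fell, against 4.34%. From pre-HSCs to FL HSCs, 2 rose, against 11.1% of all tested genes, and 15 fell, against 13.9%. From FL to BM HSCs, 1 rose, against 5.99%, and 2 fell, against 4.07%. The median difference over the 25 rows was 0.11, 2.34, -1.91 and -0.13 along the 4 transitions, and over all tested genes it was 0.03, 0.09, 0.11 and 0.00. Of the 14 that rose into pre-HSCs, 12 fell again into FL HSCs, which is a change in the same 3 pre-HSC libraries counted from both sides.

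**Figure D1:**
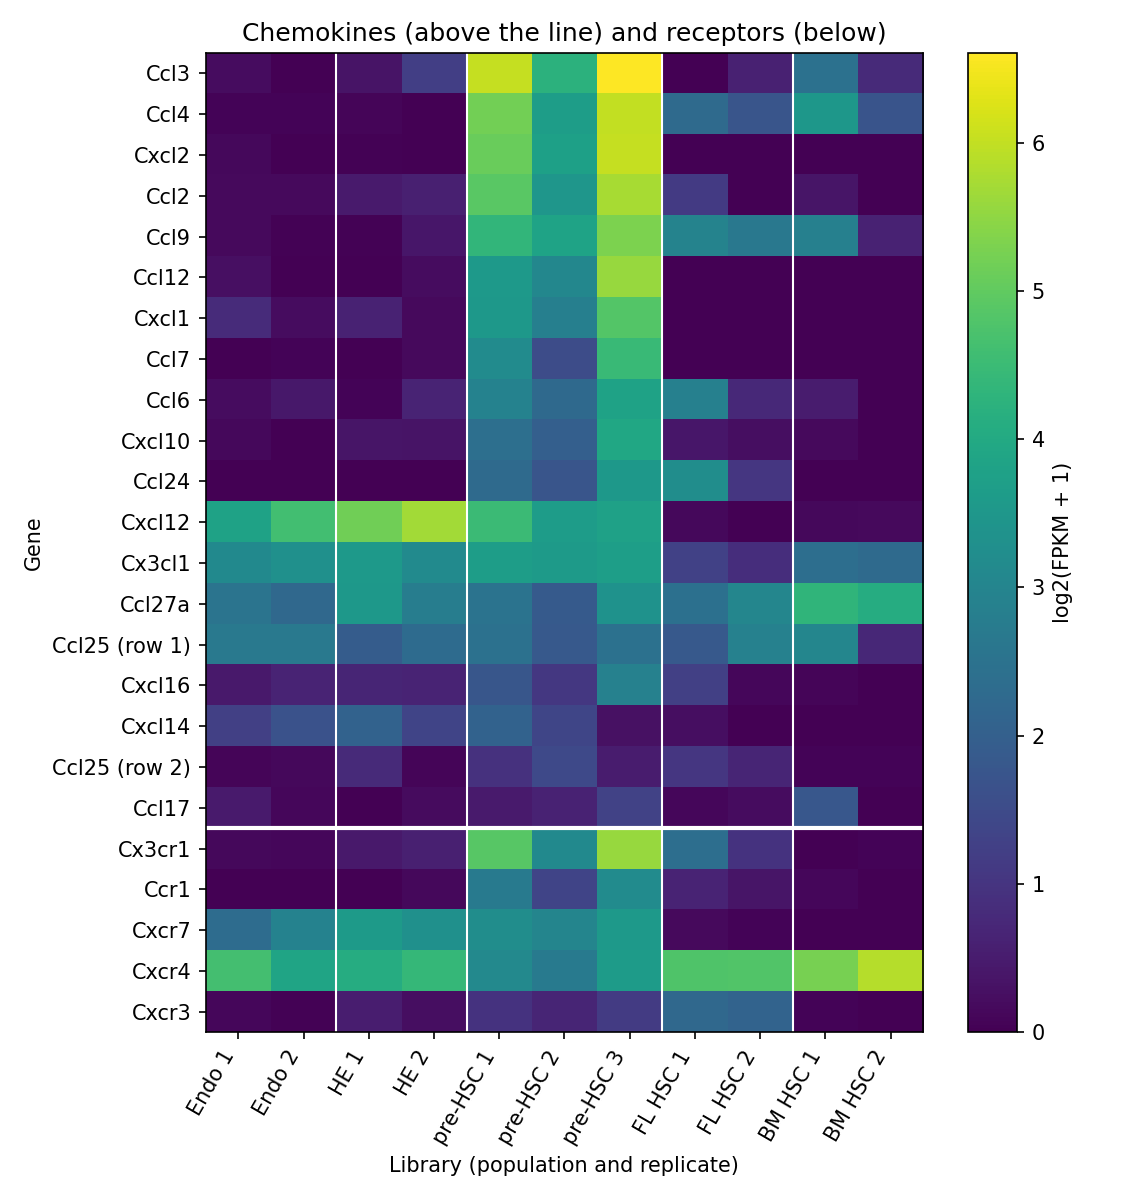
Level of 24 tested rows (vertical axis, ligands above the thick line and receptors below) in the 11 libraries (horizontal axis), as log2(FPKM + 1) in color. The 11 ligands at the top and the 2 receptors just below the line are bright in the pre-HSC columns, pre-HSC replicate 3 most of all, while Cxcr4 is lowest there.

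The CC chemokines (2 adjacent cysteines in the protein) that attract monocytes include Ccl3. Its mean in pre-HSCs, 59.4 FPKM, was the highest among the 55 rows of the name rule in any of the 5 populations. Ccl3 (MIP-1 alpha) was at 63.8, 18.1 and 96.3 FPKM in pre-HSC replicates 1, 2 and 3. It was at 0.167 and 0 in Endo, 0.267 and 1.35 in HE, 0 and 0.532 among the FL libraries and 4.56 and 0.729 among the BM libraries. The lowest pre-HSC library thus lay above the highest library of any other population. Ccl3 rose by 4.84 (SE 0.68, adjusted p = 0.00127) and then fell by 5.32 (SE 0.68, adjusted p = 0.000146).

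Its neighbor Ccl4 (MIP-1 beta) is another attractant of monocytes and T cells. In the pre-HSC libraries Ccl4 was at 35.4, 11.9 and 63.1 FPKM. It was at or below 0.0663 in Endo and HE, at 3.87 and 2.37 in FL HSCs and at 10.3 and 2.30 in BM HSCs. Pre-HSCs did not overlap any other population, and BM replicate 1 came closest. The differences were 4.91 (SE 0.64, adjusted p = 0.000896) into pre-HSCs and -2.94 (SE 0.64, adjusted p = 0.00386) into FL HSCs.

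Ccl2 (MCP-1), the main ligand of the monocyte receptor Ccr2, was at 29.2, 10 and 52.2 FPKM in the pre-HSC libraries. Elsewhere it was at most 1.17, in FL replicate 1. Ccl2 rose by 4.18 (SE 0.56, adjusted p = 0.00104) and fell by 4.14 (SE 0.56, adjusted p = 0.000223). Its receptor gene Ccr2 was below the filter, at most at 0.999 FPKM, in FL replicate 1.

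Ccl12 and Ccl7 are further monocyte attractants encoded beside Ccl2. Ccl12 was at 10.8, 7.38 and 46.7 FPKM in pre-HSCs and at most at 0.214 in Endo and HE, and it was listed at 0 in all FL and BM libraries. Ccl7 was at 8.06, 1.87 and 21.3 in pre-HSCs, at most at 0.115 in Endo and HE, and also listed at 0 in all FL and BM libraries. The differences into pre-HSCs were 3.96 for Ccl12 (SE 0.58, adjusted p = 0.00162) and 2.98 for Ccl7 (SE 0.64, adjusted p = 0.00882). Both were called lower in FL HSCs (adjusted p = 0.000307 for Ccl12 and 0.00302 for Ccl7), and no fold is given against libraries at 0. Neither Ccl7 call was made without pre-HSC replicate 1 (F test adjusted p = 0.0172), nor the rise without HE replicate 1 (adjusted p = 0.0748).

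An exact 0 in this table can be a failed estimate. Prpf8, a core splicing factor used by every cell, has 54.1 and 52.3 FPKM in pre-HSC replicates 1 and 2 but 0 in replicate 3, so such genes are given as listed at 0.

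Ccl9 and Ccl6 are related mouse CC chemokines of myeloid cells, both ligands of Ccr1. Ccl9 was at 19.4, 13.3 and 38.3 FPKM in pre-HSCs, at most at 0.313 in Endo and HE, at 6.72 and 5.24 in FL HSCs and at 6.28 and 0.540 in BM HSCs. Ccl6 was at 6.58, 3.80 and 12.99 in pre-HSCs, at most at 0.568 in Endo and HE, at 6.33 and 0.696 in FL HSCs and at 0.419 and 0 in BM HSCs. For Ccl9 the pre-HSC libraries stood apart from all others, while for Ccl6 FL replicate 1 lay among them. Ccl9 rose by 4.27 (SE 0.59, adjusted p = 0.00117) and fell by 1.70 (SE 0.59, adjusted p = 0.0358), and Ccl6 rose by 2.64 (SE 0.59, adjusted p = 0.0108). The fall of Ccl9 was not called without Endo replicate 1 or 2, pre-HSC replicate 1 or 3, or FL replicate 1 or 2 (adjusted p 0.052 to 0.14). The rise of Ccl6 was not called without either Endo, HE or BM replicate or without pre-HSC replicate 1 or 3 (F test adjusted p 0.0102 to 0.0173).

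Ccl24 (eotaxin-2), a ligand of the eosinophil receptor Ccr3, was at 3.89, 2.34 and 10.5 FPKM in pre-HSCs and at 8.42 and 1.06 in FL HSCs. It was listed at 0 in all Endo, HE and BM libraries. FL replicate 1 lay within the range of the pre-HSC libraries and FL replicate 2 below it. Ccl24 was called higher in pre-HSCs than in HE (adjusted p = 0.0153) and lower in BM than in FL HSCs (adjusted p = 0.0462). Neither call was made without either Endo, HE or BM replicate or without pre-HSC replicate 1 (F test adjusted p 0.0145 to 0.0175), and the fall into BM HSCs was also lost without FL replicate 1 (adjusted p = 0.312). Its receptor gene Ccr3 was at most at 0.154 FPKM in any library.

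The CXC chemokines (cysteines separated by 1 residue) Cxcl1 and Cxcl2 attract neutrophils through Cxcr2. Cxcl2 was at 33.0, 12.5 and 63.7 FPKM in pre-HSCs, at most at 0.107 in Endo and HE, and listed at 0 in all FL and BM libraries. Cxcl1 was at 10.6, 6.23 and 27.3 in pre-HSCs, at most at 0.751 in Endo and HE, and listed at 0 in all FL and BM libraries. For each gene the pre-HSC libraries lay apart from all others. Cxcl2 rose by 4.93 (SE 0.50, adjusted p = 0.000255) and Cxcl1 by 3.34 (SE 0.47, adjusted p = 0.00137), and both were called lower in FL HSCs (adjusted p = 3.2e-05 for Cxcl2 and 0.000142 for Cxcl1). These are the 2 genes with the shared GGGAATTTCCC run in their promoters. Cxcl3, a close relative encoded in the same group, was below the filter with its highest value, 1.51 FPKM, in pre-HSC replicate 3. The receptor gene Cxcr2 stayed low, at most at 1.48 FPKM, in FL replicate 1. Cxcr1 was at most at 1.07, in BM replicate 2.

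Cxcl10 (IP-10), an interferon-induced ligand of Cxcr3, was at 4.36, 2.99 and 14.2 FPKM in pre-HSCs and at most at 0.313 in every other population. It rose by 2.42 (SE 0.45, adjusted p = 0.005) and fell by 2.46 (SE 0.45, adjusted p = 0.00153). The other interferon-induced ligands of Cxcr3 did not share this level, since Cxcl9 was listed at 0 in all 11 libraries and Cxcl11 was at most at 0.181.

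**Figure D2:**
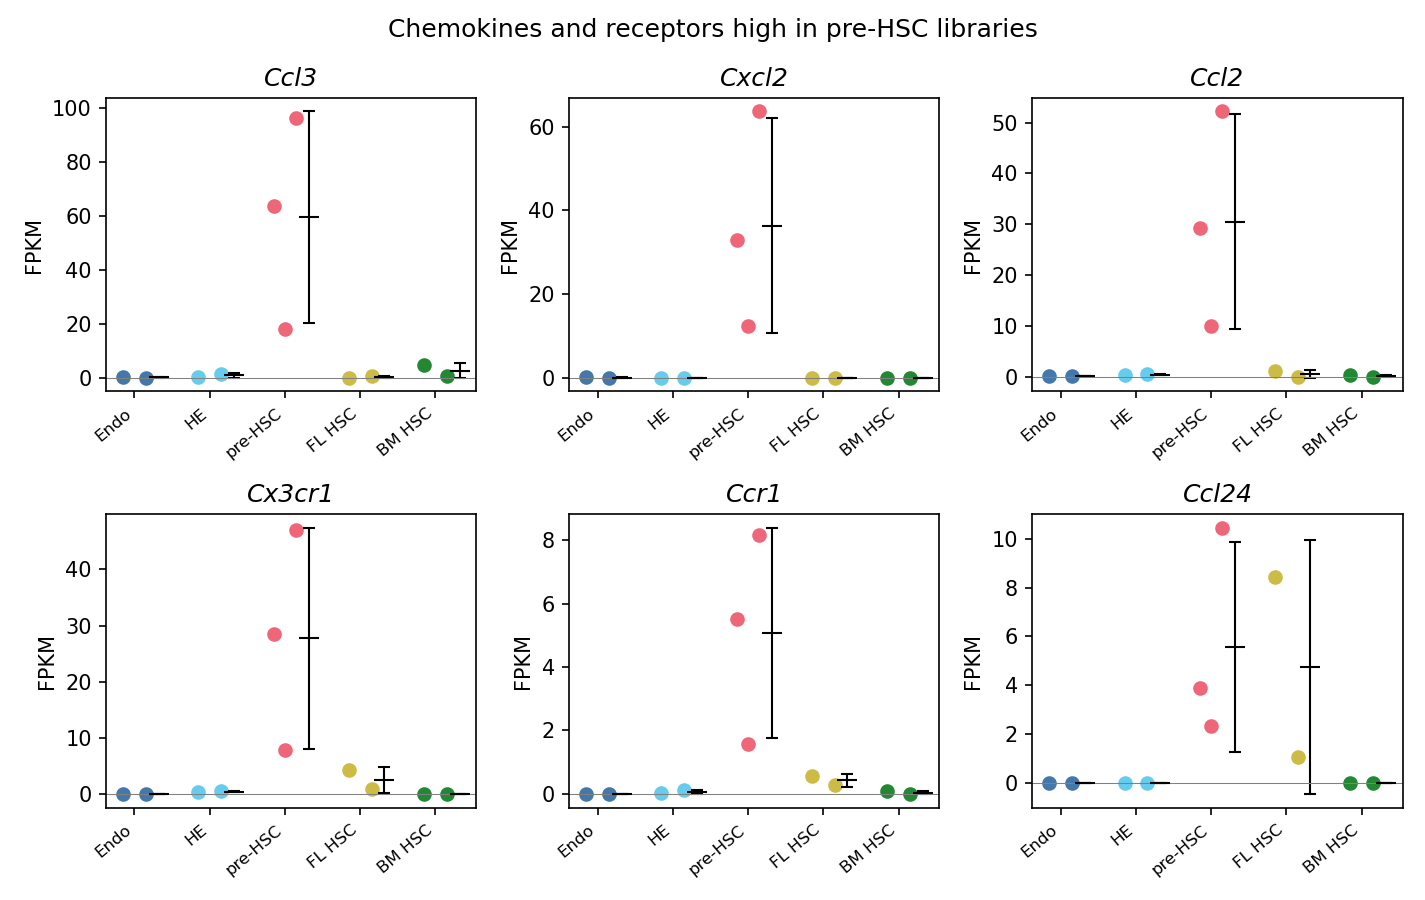
FPKM (vertical axis, linear, with its own scale in each panel) of 6 genes in the 5 populations (horizontal axis), where each colored point is a library and the black bars give the mean and SD of the 2 or 3 libraries. Ccl3, Cxcl2, Ccl2, Cx3cr1 and Ccr1 are highest in all 3 pre-HSC points, and for Ccl24 one FL point, at 8.42 FPKM, lies among them.

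Among the receptors, Cx3cr1 and Ccr1 were high in the same libraries as the inflammatory ligands. Cx3cr1, the fractalkine receptor that marks microglia and monocyte-derived cells, was at 28.5, 7.79 and 47.1 FPKM in pre-HSCs. It was at most at 0.504 in Endo and HE, at 4.21 and 0.941 in FL HSCs and at most at 0.0468 in BM HSCs. No other library reached the lowest pre-HSC library. Cx3cr1 rose by 4.01 (SE 0.62, adjusted p = 0.00208) and fell by 2.87 (SE 0.62, adjusted p = 0.00386).

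Ccr1, a receptor of Ccl3, was at 5.52, 1.57 and 8.17 FPKM in pre-HSCs, at most at 0.103 in Endo and HE, at 0.57 and 0.286 in FL HSCs and at most at 0.0746 in BM HSCs. All pre-HSC libraries lay above all others. Ccr1 rose by 2.34 (SE 0.43, adjusted p = 0.00458) and fell by 1.91 (SE 0.43, adjusted p = 0.00471), and neither call was made without pre-HSC replicate 1 (F test adjusted p = 0.0103).

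The 3 pre-HSC libraries fell in 1 order for all 14 genes that rose. Replicate 3 was the highest and replicate 2 the lowest in 14 of 14, with a median ratio of replicate 3 to replicate 2 of 5.15 (range 2.88 to 11.4). This order held in 22.0% of all 14708 tested genes and in 47.0% of the 1026 genes that rose into pre-HSCs. Of the 11 other tested chemokine rows, 7 had it too, with a median ratio of 1.765 over the 11. It also held in 12 of 13 macrophage and microglia-like marker genes, where the median ratio was 5.98, and in 0 of 12 endothelial and 0 of 12 mural and mesenchymal markers.

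Like these chemokine genes, the macrophage markers were higher in pre-HSCs than in Endo and HE. All 13 reached a mean of 1 FPKM in pre-HSCs, against 3 in Endo, 6 in HE, 13 in FL HSCs and 6 in BM HSCs, and none was listed at 0 in every library of a population. Their summed FPKM was 791.2, 302.2 and 1632 in pre-HSC replicates 1, 2 and 3. It was 11.8 and 15.1 in Endo and 14.4 and 21.3 in HE. The FL libraries had 487.3 and 126.8, with Lyz2 alone at 120.6 and 70.5. The BM libraries had 114.1 and 136.6, with Lyz2 alone at 101.3 and 126.6. FL replicate 1 thus lay among the pre-HSC libraries and FL replicate 2 below them. Csf1r, the receptor that defines the macrophage lineage, was at 85.8, 26.3 and 164.4 FPKM in pre-HSCs, at most at 1.46 in Endo and HE, at 33.2 and 4.79 in FL HSCs and at most at 0.136 in BM HSCs. Ptprc, which encodes CD45, was at 9.75, 7.97 and 13.3 FPKM in pre-HSCs, and CD45 was excluded by the Endo and HE gates alone.

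The 14 chemokine genes that rose summed to 262 FPKM in pre-HSC replicate 1, 101.7 in replicate 2 and 508.2 in replicate 3. Per 100 FPKM of macrophage markers this was 33.1, 33.7 and 31.1, so the ratio varied little between libraries whose chemokine sums ran from 101.7 to 508.2 FPKM. In the other populations the ratio was lower, at 16.0 and 5.55 in Endo, 14.5 and 19.6 in HE, 6.70 and 9.76 among the FL libraries and 19.4 and 2.81 among the BM libraries. FL replicate 1 had a higher marker sum than pre-HSC replicate 2 and a lower chemokine sum, 32.6 against 101.7 FPKM. The part of macrophage RNA in the rise and fall of these genes was not tested.

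**Figure D3:**
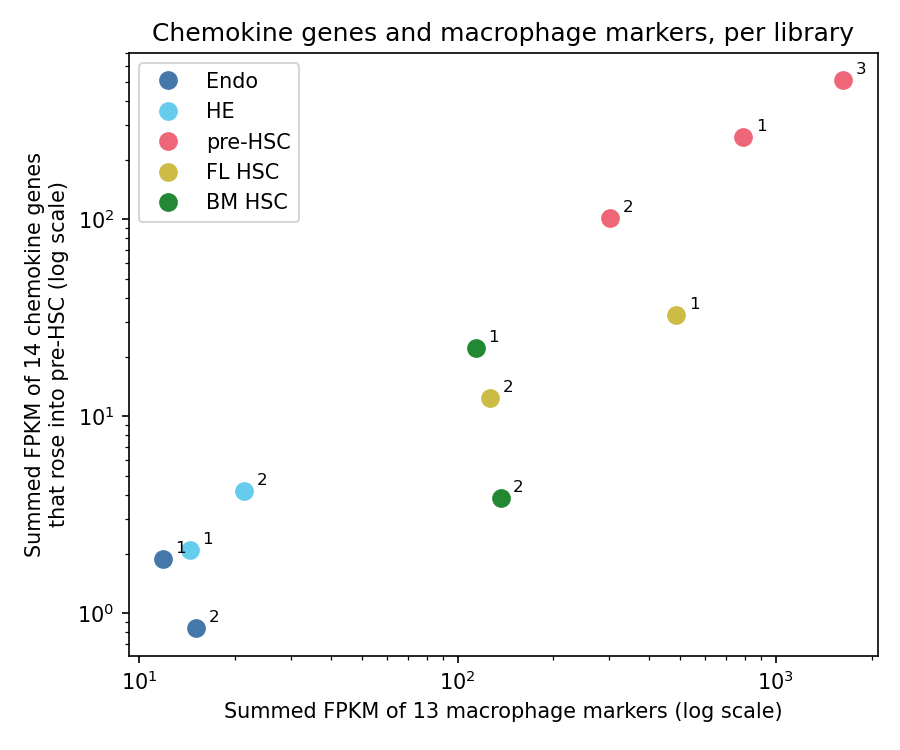
Summed FPKM of the 14 chemokine genes that rose into pre-HSCs (vertical axis, log scale) against the summed FPKM of 13 macrophage markers (horizontal axis, log scale), 1 point per library with its replicate number. The 3 pre-HSC points lie in a line, from 101.7 to 508.2 FPKM of chemokine genes, and FL replicate 1 lies below that line at 32.6.

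Without the libraries richest in macrophage markers in their population, pre-HSC replicate 3 and FL replicate 1 together, 22 chemokine rows were tested. Of these, 14 rose and 2 fell into pre-HSCs, and 1 rose and 15 fell into FL HSCs. In the same fit 965 and 583 of all 14451 tested genes rose and fell into pre-HSCs, and 1449 and 1816 into FL HSCs. The pre-HSC libraries kept still had macrophage marker sums of 791.2 and 302.2 FPKM, against 14.4 and 21.3 in HE. These counts therefore cannot tell the part of macrophage RNA. Without pre-HSC replicate 1 the counts were 10 and 1 of 25 chemokine rows into pre-HSCs and 2 and 12 into FL HSCs, beside 900 and 630 and then 1542 and 1850 of all 14579 tested genes.

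Many of the genes that rose are neighbors in the genome (positions in mm9). Most chemokine and receptor rows lie in such groups whether or not they rose, and each group below holds a gene that rose. Of the CC chemokine genes on chromosome 11, Ccl2, Ccl7 and Ccl12 rose in the group of 6 from Ccl2 to Ccl1 (81849073 to 82119192), where Ccl11, Ccl8 and Ccl1 stayed at or below a mean of 0.14 FPKM in pre-HSCs. About 1 megabase further, 4 of 5 rose from Ccl5 to Ccl4 (83339280 to 83478185), and Ccl5 had a mean of 0.201 FPKM in pre-HSCs. On chromosome 5, Cxcl1 and Cxcl2 rose of 5 genes from Cxcl5 to Cxcl2 (91188325 to 91334935). In the same group Cxcl5, Cxcl3 and Cxcl15 had means of 0.0686, 0.767 and 0.0311. Further along, Cxcl10 rose between Cxcl9 and Cxcl11 (92750357 to 92794511). In each of these groups, genes that rose thus stood beside genes at or near 0.

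**Figure D4:**
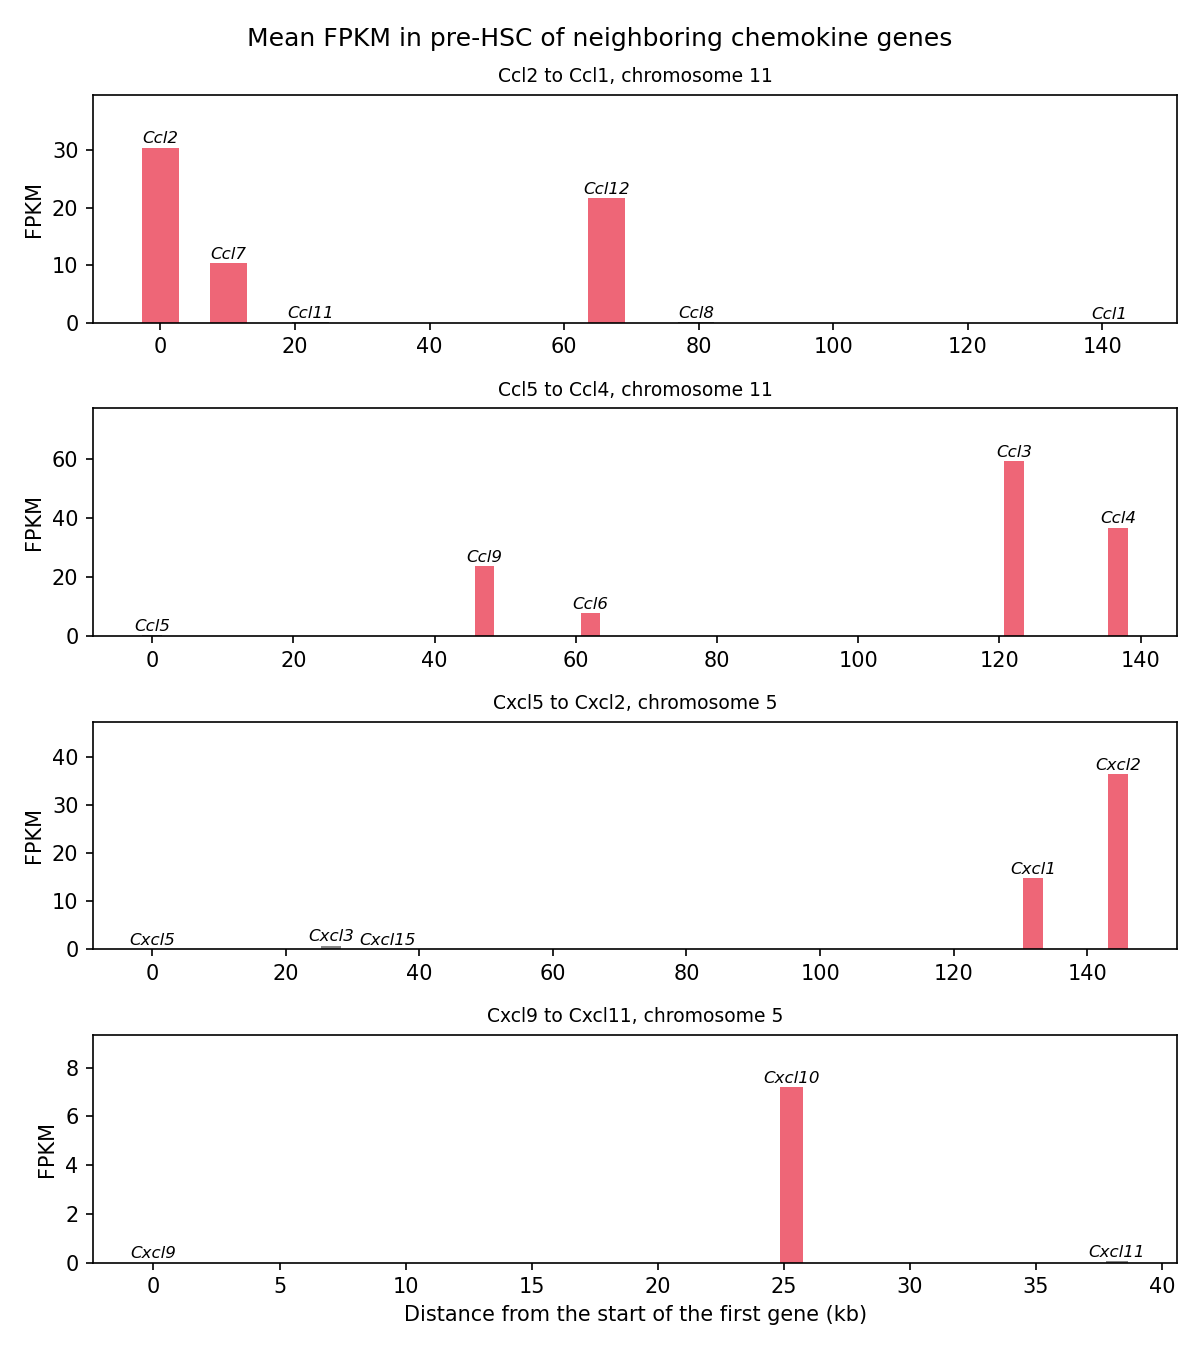
Mean FPKM in the 3 pre-HSC libraries (vertical axis, linear, own scale per panel) of the chemokine genes in 4 genomic groups, by distance from the start of the first gene in kb (horizontal axis). Red bars are genes that rose from HE to pre-HSCs and gray bars the others, and in each group tall red bars stand beside genes near 0, such as Ccl5 at 0.201 beside Ccl9 at 23.6.

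Cxcl12 (SDF-1), the homeostatic ligand, ran the other way. The Endo libraries had 12.9 and 23.3 FPKM, the HE libraries 35.1 and 50.3, the pre-HSC libraries 21.8, 11.7 and 12.8, the FL libraries 0.099 and 0, and the BM libraries 0.101 and 0.121. HE libraries lay above all others, Endo and pre-HSCs overlapped, and FL and BM HSCs were near 0. The difference between Endo and HE was 1.23 (SE 0.34, adjusted p = 0.29) and was not called. Cxcl12 fell by 1.44 from HE to pre-HSCs (SE 0.31, adjusted p = 0.00882) and fell by 3.92 from pre-HSCs to FL HSCs (SE 0.31, adjusted p = 6e-06). Without HE replicate 2 the first difference was -1.19 and not called (adjusted p = 0.0625).

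Cxcl12 is a product of stromal and perivascular cells as well as of endothelium. The summed FPKM of 12 mural and mesenchymal markers was 236 and 557 for Endo, 1294 and 1409 for HE, 586.2, 270.7 and 354.5 for the pre-HSC libraries, 4.64 and 4.56 for the FL libraries and 10.8 and 10.7 for the BM libraries. It had the same order of libraries as Cxcl12 within Endo, HE and pre-HSCs, and its part in the Cxcl12 values was not tested. The summed FPKM of 12 endothelial markers lay between 2475 and 3472 in Endo, HE and pre-HSCs and between 371.2 and 485.6 in FL and BM HSCs.

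Cxcr4, the signaling receptor of Cxcl12, was higher in each FL and BM HSC library, where Cxcl12 was at most at 0.121 FPKM, than in any library of the other populations. The Endo libraries had 23.7 and 13.5 FPKM, HE 16.1 and 19.9, pre-HSCs 7.62, 5.57 and 11.2, FL HSCs 26.5 and 27.3, and BM HSCs 36.9 and 57.9. Pre-HSCs lay below every other library, Endo and HE overlapped, and FL and BM HSCs did not overlap. Cxcr4 fell by 1.10 into pre-HSCs (SE 0.31, adjusted p = 0.0262) and rose into FL HSCs by 1.66 (SE 0.31, adjusted p = 0.0015). The further difference between FL and BM HSCs was 0.76 (SE 0.33, adjusted p = 0.131) and was not called. The fall was not called without HE replicate 1 or 2 or pre-HSC replicate 1 or 2 (adjusted p 0.0668 to 0.121), nor with FPKM scaled to equal totals, where it was -0.95 and below 2-fold.

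Cxcr7 (Ackr3), the atypical receptor that takes up Cxcl12, was near 0 in FL and BM HSCs like its ligand, where Cxcr4 was highest. Its FPKM were 4.06 and 6.68 for Endo, 11.03 and 9.02 for HE, 8.38, 7.08 and 10.8 for pre-HSCs, 0.133 and 0.0525 for FL HSCs and 0 for both BM libraries. Endo lay below HE and pre-HSCs, which overlapped each other. The difference between Endo and HE was 0.82 (SE 0.26, adjusted p = 0.357) and was not called. From HE to pre-HSCs, where Cxcl12 fell, Cxcr7 differed by -0.19 (SE 0.24, adjusted p = 0.581) and was not called. Cxcr7 fell by 3.14 into FL HSCs (SE 0.24, adjusted p = 5e-06). Cxcl12 and Cxcr7 thus fell together at the transition where Cxcr4 rose.

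Cx3cl1 (fractalkine), a membrane-bound ligand made by endothelium, was not called between HE and pre-HSCs, where its receptor gene Cx3cr1 rose. Cx3cl1 had 7.81 and 8.99 FPKM in Endo, 10.7 and 8.00 in HE and 11.8, 11.1 and 11.9 in the pre-HSC libraries. Later it had 1.40 and 0.814 among the FL libraries and 4.19 and 3.89 among the BM libraries. Endo and HE overlapped, pre-HSCs lay just above them, and the lowest values were in FL HSCs. Cx3cl1 differed by 0.30 from HE to pre-HSCs (SE 0.19, adjusted p = 0.262), fell by 2.59 into FL HSCs (SE 0.19, adjusted p = 3e-06) and rose into BM HSCs by 1.27 (SE 0.21, adjusted p = 0.00266). The pre-HSC libraries had the order of the inflammatory genes in Cx3cl1 too but spread little, with 11.1 to 11.9 FPKM where Cx3cr1 ranged from 7.79 to 47.1.

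Cxcr3, a receptor best known from T cells, was the single chemokine gene with its peak in FL HSCs among the tested rows. Endo had 0.0762 and 0.0321 FPKM, HE 0.440 and 0.177, pre-HSCs 0.972, 0.601 and 1.22, FL HSCs 3.71 and 3.28, and BM HSCs 0.0489 and 0. FL HSCs lay above every other library. Cxcr3 rose into FL HSCs by 1.23 (SE 0.20, adjusted p = 0.000779) and fell by 2.13 into BM HSCs (SE 0.22, adjusted p = 0.00028). Among 13 lymphoid markers, 2 reached a mean of 1 FPKM in each population, and their sums were 33.0 and 22.4 among the FL libraries and 36.3 and 59.8 among the BM libraries. The part of lymphoid RNA in the Cxcr3 values was not tested.

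**Figure D5:**
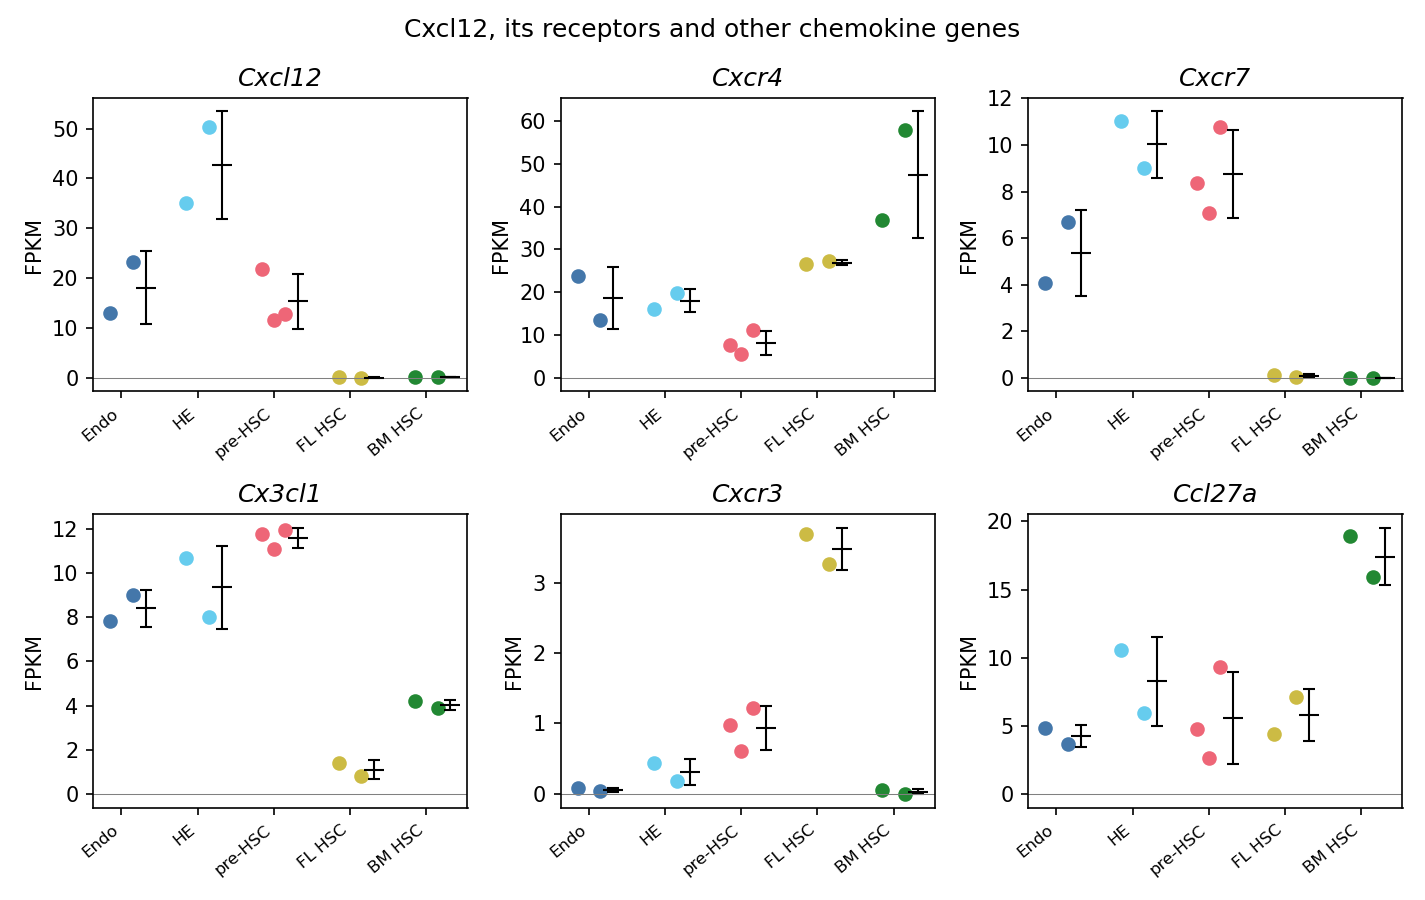
FPKM (vertical axis, linear, own scale per panel) of Cxcl12, Cxcr4, Cxcr7, Cx3cl1, Cxcr3 and Ccl27a in the 5 populations (horizontal axis), with 1 colored point per library and black bars for the mean and SD of the 2 or 3 libraries. Cxcl12 and Cxcr7 are near 0 in FL and BM HSCs, where Cxcr4 is at 26.5 to 57.9 FPKM, and Cxcr3 peaks in FL HSCs at 3.28 and 3.71.

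The other 6 tested rows were called in no transition. Ccl27a, a chemokine of skin epithelium, ranged from 2.66 to 10.6 FPKM outside BM HSCs, where it was at 18.9 and 15.9. Its difference between FL and BM HSCs was 1.46 (SE 0.44, adjusted p = 0.0388), but the F test had an adjusted p of 0.02, above its threshold. The 2 overlapping Ccl25 models (a chemokine of thymus and gut) ranged from 0.67 to 7.15 and from 0.0441 to 1.73 FPKM, and their reads may be split between them. Cxcl16, a membrane-bound chemokine that binds Cxcr6, was at 2.43, 1.09 and 6.49 in pre-HSCs and at most at 1.37 elsewhere, with a difference of 1.24 into pre-HSCs (SE 0.48, adjusted p = 0.082). Cxcl14 ranged from 0 to 3.25 and Ccl17 from 0 to 2.47.

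Below the filter were 30 rows. For 10 of them the highest library reached 0.5 FPKM. In BM replicate 1 these were Ccl8 (1.82), Ccl19 (1.246) and Ccl5 (1.15), and in BM replicate 2 Cxcr1 (1.07) and Cxcl5 (0.516). In the FL and pre-HSC libraries they were Cxcr2 (1.48), Ccr2 (0.999), Cxcl3 (1.51), Ccl22 (0.973) and Cxcl13 (0.900). The remaining 20 never reached 0.5, and of those Ccl1, Ccl21a, Ccl21b, Ccl26, Ccl27b and Cxcl9 were listed at 0 in all 11 libraries. Ccl21a and Ccl21b, and Ccl27a and Ccl27b, are near-identical copies, and since uniquely mapped reads were kept, their values are uncertain. Ccl2, Ccl6, Cxcl10, Cxcl16 and Ccl27a overlap a gene on the opposite strand, Ccl27a the receptor gene Il11ra1, and whether strand was used in the counting is not stated in the sources used here.

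Of the genes that act with chemokines and receptors, 64 were listed and 57 were tested. Along the 4 transitions, 1, 20, 12 and 8 rose and 0, 3, 15 and 3 fell, beside 0.0544%, 6.98%, 11.1% and 5.99% of all tested genes that rose and 0.0748%, 4.34%, 13.9% and 4.07% that fell. The counts of the smaller lists that follow are set against the same shares. Among 16 genes of downstream motility, 9 rose into pre-HSCs and 8 into FL HSCs. Rac2, a GTPase of blood cell migration, rose by 4.10 (SE 0.30) and then 2.02 (SE 0.30). Coro1a, an actin regulator of leukocytes, rose by 3.52 and 1.66, and the Rac exchange factors Vav1 and Dock2 rose by 3.22 and 1.88 and by 3.04 and 2.15. The adjusted p values of these 8 differences were at most 0.000886. None of the 16 was called lower after the pre-HSC stage.

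Among 9 tested atypical receptors and chemokines outside the name rule, 6 rose and 1 fell into pre-HSCs, and 0 rose and 5 fell into FL HSCs. Pf4 (Cxcl4), the platelet chemokine, rose into pre-HSCs by 3.95 (SE 0.68, adjusted p = 0.00334) and into BM HSCs by 3.13 (SE 0.75, adjusted p = 0.0156). The platelet chemokine Ppbp (Cxcl7) was called in every transition. It rose by 1.32 into pre-HSCs, fell by 2.73 into FL HSCs and rose by 1.90 into BM HSCs (adjusted p at most 0.00169). From Endo to HE it rose by 1.95 (SE 0.21, adjusted p = 0.00961), the only one of the 57 called there. This call was lost without Endo replicate 1 (adjusted p = 0.177), HE replicate 1 (adjusted p = 0.0789) or HE replicate 2 (adjusted p = 0.11), when no gene of the 57 was called, and with only the populations compared (adjusted p = 0.415). Ccrl2, an atypical receptor of macrophages and endothelium, rose by 3.30 and fell by 2.38. Cmklr1, a receptor of the attractant chemerin, rose by 1.10 into pre-HSCs, fell by 2.27 into FL HSCs and fell by 1.23 into BM HSCs. The 1 gene of this list that fell into pre-HSCs, named after its values were seen, was Mif, a cytokine that also binds Cxcr4, at -1.57 (SE 0.22, adjusted p = 0.0013). For 11 other megakaryocyte and platelet markers, Pf4 and Ppbp left out, the summed FPKM ranged from 43.4 to 232.1 in the first 4 populations. It was 194.9, 209.1 and 232.1 in pre-HSC replicates 1, 2 and 3, and 478.6 and 495.9 in BM HSCs. In the same pre-HSC libraries Pf4 was at 128.8, 68.6 and 244.9 FPKM and Ccrl2 at 16.75, 4.95 and 38.7, the order of the summed macrophage markers. Ppbp had another order, at 12.8, 17.9 and 13.7. The parts of platelet and macrophage RNA in these values were not tested.

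Among 8 RGS genes, which shorten G protein signals from these receptors, 3 rose into pre-HSCs, 2 rose and 4 fell into FL HSCs, and 2 rose into BM HSCs. Rgs1 rose by 3.44, fell by 2.93 and rose by 5.56 along the last 3 transitions. Rgs18, named after its values were seen, rose in each of these, by 1.56, 2.58 and 2.19. Into FL HSCs, Rgs3 fell by 3.13, Rgs2 fell by 2.73 and Rgs16 fell by 2.71. Of 13 G proteins, receptor kinases and arrestins, 1 rose and 1 fell into pre-HSCs, 2 rose and 2 fell into FL HSCs and 1 rose into BM HSCs, counts near the shares of all tested genes. Into FL HSCs, the inhibitory G protein subunit Gnai1 fell by 2.51 and the receptor kinase Grk5 fell by 1.41, while the arrestin Arrb1 rose by 1.32, and the G protein subunit Gnaq rose into BM HSCs by 1.20. Of 11 tested genes for chemokine processing and presentation, 1 rose and 1 fell into pre-HSCs, 4 fell into FL HSCs, and 3 rose and 2 fell into BM HSCs. Into FL HSCs, the matrix protease Mmp2, which can cut Cxcl12, fell by 5.22, the protease Mmp14 fell by 4.72 and Sdc4, a proteoglycan core, fell by 3.03. Sdc2, another proteoglycan core, rose into BM HSCs by 2.03. The adjusted p values of these changes of RGS, G protein and processing genes were at most 0.00382.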

How the data were processed

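RNA-seq was measured in 11 libraries of 5 sorted mouse populations. The authors used TopHat to align reads to mm9, took those mapping uniquely and used Ensembl gene models. The authors deposited FPKM values per gene and library, and the sources used here do not state which tool made them. The submitters' processing notes name TopHat, Cufflinks, featureCounts, Subread and edgeR without versions. The study's own test used counts, which FPKM do not allow to be repeated, and whole-read steps were not found (no value was shared by more than 6 single-exon genes), so no counting interval is given. Total FPKM per library ran from 569851 to 789161, and Pearson's r of log2(FPKM + 1) within a population from 0.958 to 0.978.

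Symbols and positions of 37038 of 37820 gene IDs (97.9%) came from GENCODE M1 on NCBIM37 (mm9), counted from 1. The limma package (3.58.1, R 4.3.3) fitted log2(FPKM + 1) by population over all libraries, with lmFit and trended eBayes. All populations share 1 estimate of the spread per gene. Each library is a separate sample in the labels, and where replicates share animals or a sort the p values measure technical spread. The fit was tested on simulated data. Tables were made with pandas 2.3.3 and numpy 2.4.6 in Python 3.11.15, and plots with matplotlib 3.10.9. Promoters came from RefSeq (GRCm38.p6). Genomic groups join chemokine genes less than 500 kb apart.

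Chemokine genes called in any transition, with Cxcl12, Cxcr4 and Cxcr7, are given in full, other tested ones by range, those below the filter by name where they reached 0.5 FPKM, and up to 4 called genes with the largest changes of each pathway list. A gene that this rule selects is not reported here, though the counts include it. The genes, lists and tests were chosen with earlier results of these data known. Alternatives were pseudocounts of 0.1 and 0.5, no filter, a filter at 0.5, equal totals of FPKM, quantile normalization, no F test step, an adjusted p under 0.01, only the populations compared, the replicate number as a block, each library left out and, chosen after seeing the data, pre-HSC replicate 3 and FL replicate 1 left out together.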

Additional observations from a re-analysis of the deposited data

How the results depend on the processing

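Of the 36 calls of chemokine genes, 23 were kept under all 22 alternatives that could test them and 13 were lost under some, with no change of direction. Leaving out pre-HSC replicate 1 lost the most, 9 of 36. The 3 chemokine genes called from FL to BM HSCs became 5 with a pseudocount of 0.1, 1 with quantile normalization, 0 with only the populations compared and 1 without pre-HSC replicate 3 and FL replicate 1. With single libraries left out, chemokine calls along the 4 transitions ranged over 0 to 0, 11 to 16, 14 to 18 and 2 to 4.

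Over all genes, the 19 calls from Endo to HE became 10 with a pseudocount of 0.1, 31 with no filter, 8 at an adjusted p under 0.01, 0 with only the populations compared and 8 without pre-HSC replicate 3 and FL replicate 1, and ranged from 1 to 25 with a library left out. The 1665 calls from HE to pre-HSCs ranged from 983 to 1772 and the 1480 calls from FL to BM HSCs from 981 to 2031, and the latter were 0 with only the populations compared. Of the pathway genes, the 1 call from Endo to HE ranged from 0 to 1, the 23 from HE to pre-HSCs from 14 to 23, and the 11 from FL to BM HSCs were 7 at an adjusted p under 0.01. With only the populations compared, both the first and the last of these were 0. The number of chemokine genes with a mean of at least 1 FPKM in BM HSCs was 4, not 8, when every library had to reach it, and that of genes highest in Endo ranged from 1 to 3.

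FPKM scaled to equal totals gave 1312 rising and 476 falling genes of all from HE to pre-HSCs, against 1026 and 639, and 1128 and 2327 from pre-HSCs to FL HSCs, against 1637 and 2040. It moved the median of all genes by under 0.2 on the log2 scale, to 0.22 and -0.09. Quantile normalization gave 802 and 832 from HE to pre-HSCs. Under both scalings 14 chemokine genes rose into pre-HSCs, and 15 and 14 fell into FL HSCs.

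After removal of the population means, same-numbered libraries correlated at -0.155 to 0.156, with 0.115 for Endo and HE. Endo and HE were sorted from the same kind of embryos. Whether their libraries share embryos or a sort cannot be told from these correlations. With the replicate block the chemokine calls were 0, 15, 16 and 4, and the 19 calls of all genes from Endo to HE were 11. Pre-HSC replicate 3 has a number of its own and does not contribute there. Depth is unknown, so no floor can be given for values listed at 0.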
